A study of Mus musculus and Homo sapiens with 18 samples.

Results

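A total of 9664 of the 16119 peaks of HA-tagged dCas9 in V6.5 mouse embryonic stem (ES) cells that received the guide Nanog-sg3 and dCas9 together had no counterpart in the line labelled V6.5 + dCas9, taken here as a stable dCas9 line. These transient-only peaks were selected on measured positions: each shared no base pair with any peak of the 5 Nanog-sg3 lists from the stable line. They make up 60.0% of the transient list (95% interval 59.2 to 60.7%, exact Clopper-Pearson), and 9664 of the 34610 peaks in the 12 mouse lists. The share and its size follow from the rule and carry no test.

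Binding was measured by chromatin immunoprecipitation with an anti-HA antibody and sequencing (ChIP-seq). The transient library came from V6.5 cells transfected with 20 ug of Nanog-sg3 and 20 ug of dCas9, and the matching input had no antibody. The stable libraries came from the V6.5 + dCas9 line, transfected with Nanog-sg3 at 0.02, 0.2, 2 or 20 ug; the 20 ug amount had 2 libraries and each other amount had 1. All are embryonic stem cells of strain C57BL/6-129, transfected with a Lipofectamine reagent. The labels name no promoter for dCas9, no number of clones for the stable line and no amount of dCas9 protein. Separate cultures behind the libraries are not stated either. The transient arm held 1 library, so nothing below can be set against a spread between transient samples.

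dCas9 is a Cas9 whose nuclease sites are inactivated: the guide RNA still pairs with DNA beside a protospacer-adjacent motif, which for Cas9 of Streptococcus pyogenes is NGG, but the DNA is not cut. Pairing starts from the seed, the guide bases next to that motif. A partial match of the seed can hold the protein for some time, so ChIP-seq of dCas9 commonly reports many places besides the intended one, more of them where chromatin is open. Nanog, the gene for which the guide was made, is a homeobox gene whose product helps to keep ES cells pluripotent.

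The lists are of unequal length and differ in their columns, which bears on every count below. The transient list had 16119 peaks with a median score of 91.27, against 5957 and 5862 peaks with median scores of 108.91 and 134.64 in replicates 1 and 2 of the stable 20 ug group. The lists for lower guide amounts in the stable line had 122 peaks (0.02 ug), 166 (0.2 ug) and 2698 (2 ug). Scores are the authors' own values, from a column without a header. The lowest score was 50.01 in the transient list and between 50.01 and 50.49 in the stable lists. A sixth column of unstated meaning held 5 in the transient list and 10 in 4 of the stable lists, and was missing from 20 ug replicate 1. The transient list and those 4 stable lists are named as filtered, and 20 ug replicate 1 is not; what was filtered is not stated. Read depth is unknown, so the way dCas9 was given, depth and list preparation cannot be told apart. Intervals on shares cover counting error only, and neighbouring peaks are not independent.

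Few transient-only peaks lay directly beside a stable peak. The gap between the edges of a transient-only peak and of the nearest stable peak had a median of 45.9 kb, with quartiles at 15.8 and 121 kb. The distance from a transient-only peak to the nearest other transient-only peak was of similar size, with a median of 41.3 kb. A stable peak lay within 1 kb of 217 transient-only peaks (2.25%, 1.96 to 2.56%) and within 10 kb of 1693 (17.5%, 16.8 to 18.3%). At the other end, 2837 (29.4%, 28.4 to 30.3%) were more than 100 kb away and 133 (1.38%) more than 1 Mb away. Peaks lying against the flank of a stable peak were therefore a small part of the group. The share within 1 kb also depends on how many peaks a list holds. It was 1.19% for 20 ug replicate 1 alone (5957 peaks) and 0.642% for the 2 ug list (2698 peaks). For another guide in the stable line, Phc1-sg1 (2948 peaks), it was 0.631%. Whether members lay nearer to stable Nanog-sg3 peaks than to other places was not tested. The nearest stable peak was in 20 ug replicate 2 for 45.8% of the transient-only peaks and in 20 ug replicate 1 for 43.5%. It was in the 2 ug list for 9.11%, and in the 0.2 and 0.02 ug lists for 0.517% and 1.07%. In that order the 5 lists held 5862, 5957, 2698, 166 and 122 of the 14805 stable peaks. That nearest stable peak itself overlapped another transient peak in 6732 cases (69.7%), against 11233 of the 14805 stable peaks over all 5 lists (75.9%).

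**Figure D1:**
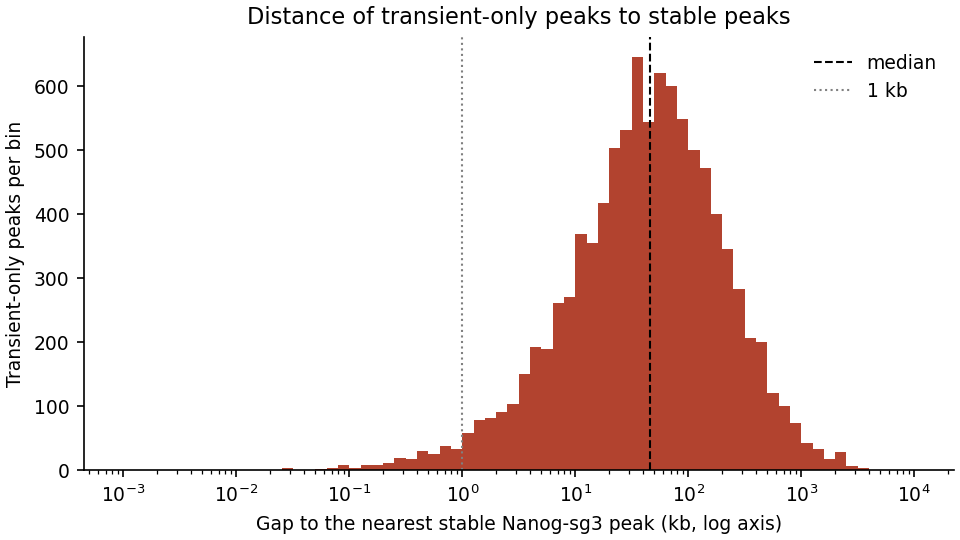
Number of transient-only peaks (y) by the gap in kb to the nearest stable Nanog-sg3 peak on a logarithmic axis (x), in bins of equal log width. The dashed line is the median, 45.9 kb, and the dotted line is 1 kb, within which 217 of the 9664 peaks lie.

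The edge of the rule is a short window and held few peaks. Of the transient-only peaks, 41 lay within 0.2 kb of a stable peak and 176 at 0.2 to 1 kb. The 3 transient-only peaks nearest to a stable peak, all beside a peak of 20 ug replicate 1, were chr3:94811201-94811531 (mm9, as all positions here; score 95.41), chr8:28195050-28196718 (107.43) and chr17:32258716-32259120 (78.61). Their gaps were 4, 6 and 20 bp. On the other side of the rule, the 3 transient peaks with the smallest overlap shared 12, 32 and 54 bp with a stable peak. These were chr6:48395121-48395854 (score 52.36), chr2:168055931-168056461 (55.25) and chr7:134921073-134921604 (83.51). Overlaps of at most 100 bp made up 8 of the 6455 shared transient peaks, whereas 5878 (91.1%) lay wholly within the stable peak with which they overlapped most. The median width was 365 bp in the transient list, against 859 and 946 bp in stable 20 ug replicates 1 and 2. A narrow peak fits more readily inside a wide one, so these counts depend on the widths in the lists.

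Transient-only peaks had lower scores than the shared ones within the same library, given here as a description. Their median was 78.09 (quartiles 63.55 and 103.93), against 124.29 (87.12 and 186.60) for the 6455 transient peaks that overlapped a stable peak. The distributions overlapped widely: 1376 transient-only peaks (14.2%) scored above the median of the shared ones. Scores climbed with the number of stable lists that held a peak. The median was 78.09 for 9664 peaks in 0 lists, 100.86 for 2747 peaks in 1, 130.41 for 2284 in 2, 189.78 for 1336 in 3, 292.69 for 82 in 4 and 386.32 for 6 in all 5.

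**Figure D2:**
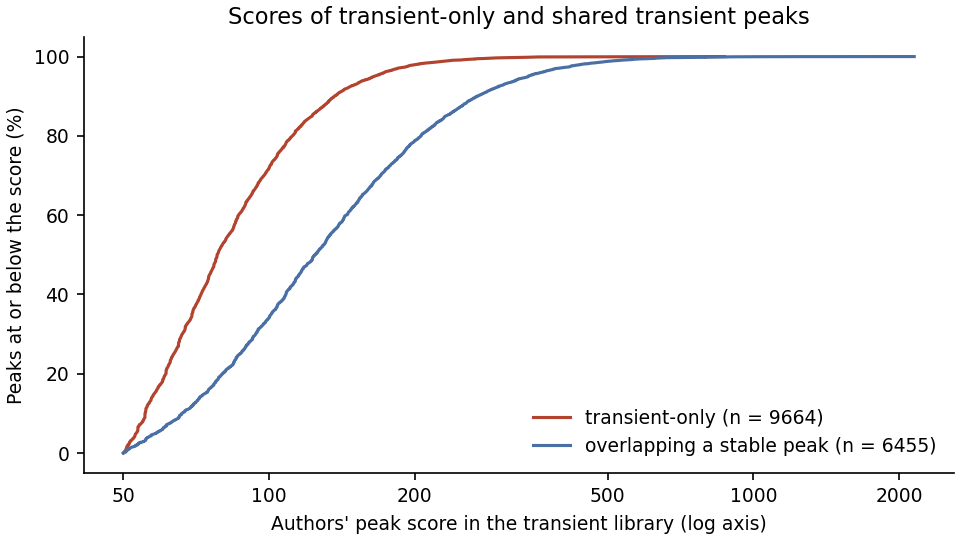
Cumulative share of peaks in percent (y) by the authors' peak score in the transient library on a logarithmic axis (x), for transient-only peaks (red, median 78.09) and for transient peaks that overlap a stable peak (blue, median 124.29). The red curve lies left of the blue one, and both curves span the scores from 50.04 to 870.97.

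The share without a stable counterpart was lower in each successive score group from the second on. With the transient peaks ranked by score and split into 10 groups of nearly equal size, transient-only peaks made up 81.9% of the lowest group (scores 50.01 to 57.11) and 82.8% of the next. They made up 68.8% of the fifth group, which ended at 91.27, and 32.3% of the ninth. In the highest group, from 197.74 up, the share was 12.9% (208 of 1612, 11.3 to 14.6%). Of the 1000 strongest transient peaks 92 were transient-only, of the 100 strongest 4, and of the 10 strongest 1.

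Narrow peaks were more often transient-only, also within each of 4 score groups. These groups are broad, the highest running from 132.58 to 2147.38, so scores within them still differ. A wide peak also has more room to meet the 1 bp rule. The median width was 326 bp for transient-only and 419 bp for shared peaks. Of the narrowest of 4 width groups (103 to 269 bp) 80.2% were transient-only, against 47.8% of the widest (528 to 2430 bp). Among peaks in the lowest of 4 score groups the share was 86.9% (85.5 to 88.2%) for peaks at or under the list's median width and 72.4% (70.1 to 74.6%) for wider ones. In the highest score group it was 30.4% (27.7 to 33.1%) for narrow and 25.9% (24.3 to 27.5%) for wide peaks. Width and distance were also weakly related among the members: the median width was 537 bp within 0.2 kb of a stable peak, 370 bp at 1 to 10 kb, 335 bp at 10 to 100 kb and 254 bp beyond 1 Mb (Spearman rho -0.20 over 9664 peaks of 1 library). Score and distance were nearly unrelated (rho -0.03), with median scores between 74.93 and 84.65 in the 6 distance groups.

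**Figure D3:**
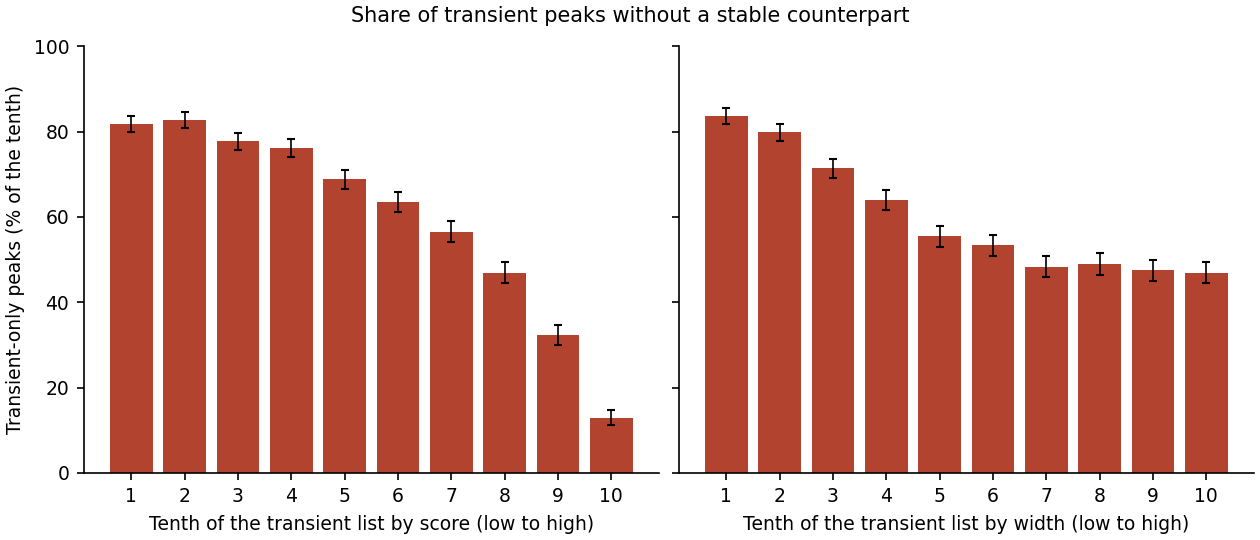
Transient-only peaks as a percentage (y) of 10 groups of the transient list, ordered from low to high by score (left) and by width (right); bars are shares and whiskers exact Clopper-Pearson 95% intervals. The share fell to 12.9% in the highest score group, and it was between 46.9 and 48.9% in the 4 widest groups.

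A few transient-only peaks were among the strongest in the transient library. The highest lay on chromosome 15 between 81229710 and 81230836, scored 870.97 and ranked 7 of 16119. Its nearest stable peak was 80.4 kb away and scored 98.66 in 20 ug replicate 1. The next was on chromosome 11 between 102416879 and 102417956 (score 675.67, rank 20), with a stable peak 21.9 kb away. On chromosome 1, between 90966475 and 90967269, a peak of score 572.82 ranked 46 and lay 48.0 kb from a stable peak. Rank 59 was held by a peak on chromosome 12 between 33638542 and 33639316, with a score of 543.11 and a gap of 118 kb. These 4 were the only transient-only peaks with a score of at least 500, out of 83 transient peaks at that level.

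The remaining 6 of the 10 strongest members scored between 360.43 and 465.28 and ranked from 112 to 280. The closest of them to a stable peak was on chromosome 16 between 38088401 and 38090243 (score 465.28), 5.17 kb from a 20 ug replicate 1 peak of score 274.31. The farthest was on chromosome 17 between 6079441 and 6080186 (395.39), with a gap of 236 kb. The other 4 were chr13:55565252-55566296 (423.15), chr11:62270011-62271395 (412.33), chr9:105396731-105397686 (396.83) and chr15:79059378-79060040 (360.43). Such scores were uncommon among members: of the 507 transient peaks with a score of at least 300, 31 (6.11%, 4.19 to 8.57%) were transient-only.

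Of all 9664 transient-only peaks 31 scored at least 300, too few to compare by distance. None of the 217 within 1 kb of a stable peak did. There, the highest transient-only scores were 291.79 on chromosome 11 between 95868108 and 95869134, 0.627 kb from a stable peak, and 265.79 on chromosome 9 between 114288678 and 114289214, 0.844 kb away. The 3 that followed were chr11:94850843-94851277 (224.59), chr17:27109570-27110410 (214.26) and chr13:55671479-55672734 (199.59). The stable neighbours of these 5 scored between 69.35 and 188.31. Transient-only peaks with a score of at least 200 numbered 4 of the 217 within 1 kb, 26 of 1476 at 1 to 10 kb, 114 of 5134 at 10 to 100 kb, 52 of 2704 at 100 kb to 1 Mb and 2 of 133 beyond. The share within 1 kb was close to that over all members, 198 of 9664.

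The members farthest from stable peaks were mostly on chromosome X, which held 1.39% of the transient peaks and 1.71% and 1.76% of the peaks in stable 20 ug replicates 1 and 2. The greatest gap was 4.62 Mb, for a peak on chromosome X between 116635165 and 116635351 with a score of 52.86. Gaps of 3.64, 3.30 and 3.27 Mb belonged to peaks on chromosome X that began at 65931346, 63813474 and 144017966, with scores of 54.87, 81.83 and 54.98. A gap of 3.49 Mb was found on chromosome 6 between 76689813 and 76690100, where the score was higher, at 126.40.

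No transient peak covered the Nanog position, chr6:122655719-122658343, which is the peak of stable Nanog-sg3 20 ug replicate 1 (score 1472.86) that also overlaps a Nanog-sg2 peak at 20 ug (1200.13). Both of these lists lack the sixth column and are not named as filtered. None of the 8 mouse lists with that column and that name had a peak there, the transient list, stable 20 ug replicate 2 and the other Nanog-sg2 lists included. The absence at Nanog and the form of the list cannot be told apart. A transient-only peak lay 2.43 kb to its left, between 122652373 and 122653284, with a score of 139.92 (rank 3592), and the Nanog peak was its nearest stable peak. To the right the next transient-only peak was 104 kb away, between 122762343 and 122762704, with a score of 54.47.

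Chromosome 14 stood apart. It held 132 of the transient-only peaks, or 1.37% (1.14 to 1.62%), and 171 of the shared transient peaks, or 2.65% (2.27 to 3.07%). In the stable line the same chromosome held 4.38% of the peaks in 20 ug replicate 1, 4.37% in replicate 2 and 4.89% at 2 ug. With the guide Phc1-sg1 in that line it held 4.24% (3.54 to 5.03%), and with Phc1-sg2 2.56% (17 of 663 peaks). Chromosome 14 had 0.51 transient-only peaks for each peak in the mean of the stable 20 ug lists, whereas the other 18 autosomes ranged from 1.31 on chromosome 13 to 2.46 on chromosome 11. Shared transient peaks gave 0.66 on chromosome 14 and 0.997 to 1.31 on the other autosomes, so the transient list was short of both kinds. Of the transient peaks on chromosome 14 43.6% were transient-only (37.9 to 49.4%), against 55.6 to 65.3% on the other autosomes. In the other direction, 51.0% and 52.3% of the stable chromosome 14 peaks in 20 ug replicates 1 and 2 overlapped a transient peak, below the ranges of 67.8 to 82.4% and 74.7 to 89.6% on the other autosomes.

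The low count was spread over most of the chromosome 14 bins that could be compared. In bins of 10 Mb with at least 20 stable 20 ug peaks over both lists, the 9 bins of chromosome 14 had 0.16 to 0.96 transient-only peaks for each stable peak, with a median of 0.51. The 195 bins of the other autosomes had 0.77 to 3.27, with a median of 1.57, and 9 of them were at or below 0.96. Thus 7 of the 9 bins of chromosome 14 were below every bin of the other autosomes, and 2 were within their range. The median score of the transient-only peaks on chromosome 14 was 84.11, within the 74.18 to 93.00 of the other autosomes, and the highest was 345.47. The shared transient peaks there had a median of 116.47, against 112.03 to 155.82 on the other autosomes and 151.10, 154.16 and 149.55 on chromosomes 13, 15 and 16. At the high end, chromosome 11 held 1044 transient-only peaks, 10.8% of all, and chromosome 8 held 694. Their ratios to stable peaks were 2.46 and 2.11, while the next among the autosomes, on chromosome 9, was 1.90. Chromosome 11 also held 8.60% of the shared transient peaks, and 6.97% and 7.39% of stable 20 ug replicates 1 and 2. With Phc1-sg1 in the stable line it held 5.43%, and with Phc1-sg2 10.1% (67 of 663 peaks, 7.92 to 12.7%). A high share on chromosome 11 was thus not particular to the transient list. The 128 transient-only peaks on chromosome X stood against 102 and 103 stable peaks in the 20 ug lists. With 1 transient library, none of these differences between chromosomes could be tested.

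**Figure D4:**
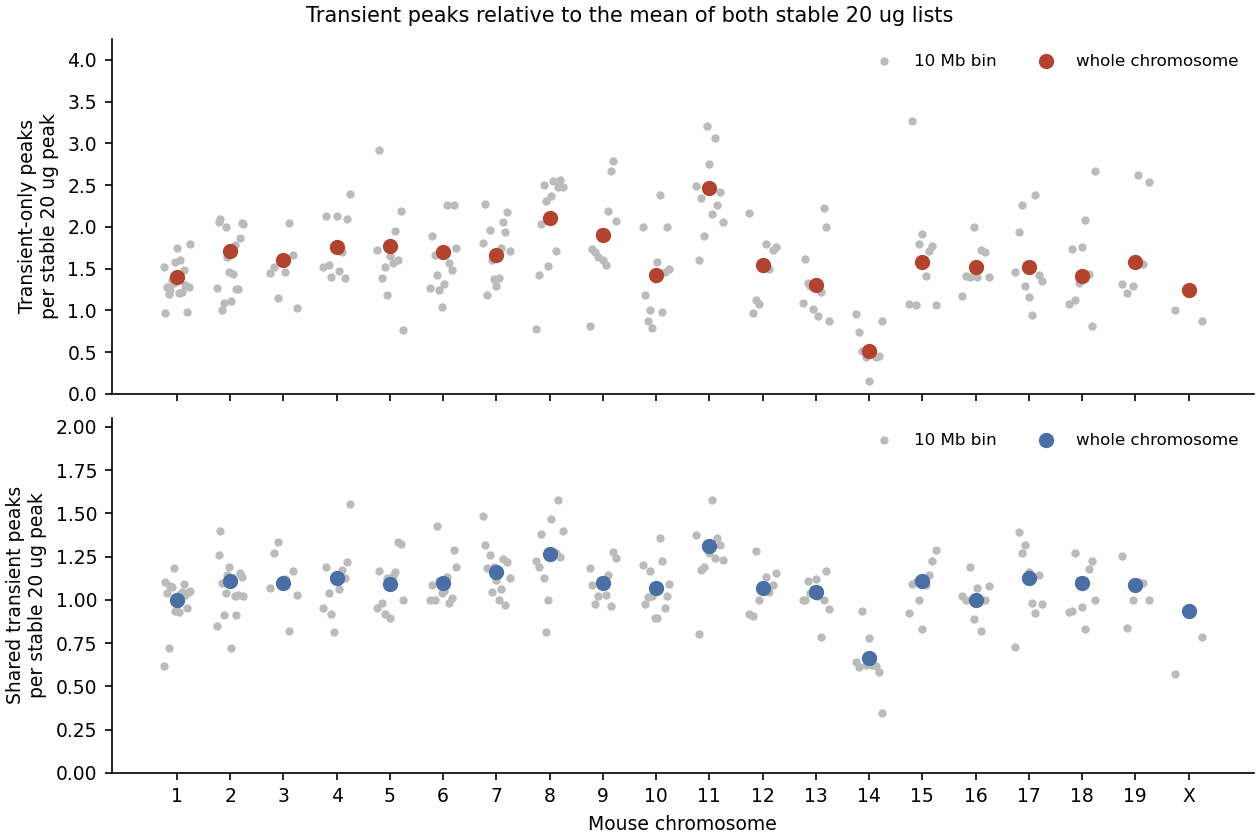
Transient-only peaks (top) and transient peaks that overlap a stable peak (bottom), each divided by the mean number of peaks in both stable 20 ug lists (y), by chromosome (x). Large points are whole chromosomes and small grey points are 10 Mb bins with at least 20 stable peaks; chromosome 14 is lowest in both panels, at 0.51 and 0.66.

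Some parts of the lists held a smaller share of the numbers in the peak names than others. Names carry a running number along the genome, in the order of chromosome 1, 10 to 19, 2 to 9, X and Y. In some stretches that number falls back close to 100, 1000 or 10000, at times more than once, and repeats numbers used elsewhere. In the transient list the longest run of such restarted stretches ran from chromosome 12 at 8779186 to chromosome 17 at 37114476 and held 3019 peaks. Of the running numbers, 43.8% were listed in restarted stretches, with a median score of 106.26, against 67.3% and 88.06 in continuous ones. Restarted stretches were also shorter of peaks and higher in score in 20 ug replicate 1 (23.7% of numbers listed against 57.2%), replicate 2 (30.1% against 45.9%) and the 2 ug list (10.99% against 20.1%). They lay at least partly elsewhere in the genome. On chromosomes 2, 3, 4 and 5 no transient peak was in a restarted stretch, but none lay where these 3 lists and the transient list were all continuous. How far the stretches coincide on other chromosomes was not examined. The reason for the numbering is not stated in the labels. Chromosomes 13, 14, 15 and 16 fell wholly in the restarted stretches of the transient list. Their ratios of transient-only to stable peaks were 1.31, 0.51, 1.58 and 1.53. The part of list completeness in the chromosome 14 count was not tested.

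The share of transient-only peaks was somewhat lower in restarted stretches. It was 57.3% (55.6 to 59.0%) of the 3305 transient peaks in restarted stretches, and 60.6% (59.8 to 61.5%) of the 12775 in continuous ones, and 39 peaks with numbers under 100 were put in neither. Among the 4972 transient peaks in places where the numbering was continuous in the transient, both 20 ug and the 2 ug lists, 62.3% were transient-only (3096 peaks, 60.9 to 63.6%). There the share in the 4 score groups was 81.6%, 76.0%, 60.7% and 26.2% from low to high, against 81.4%, 73.5%, 57.7% and 27.2% over the whole list. These stretches were defined after the lists had been examined.

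Transient-only peaks mostly stood apart from each other. The distance to the nearest other transient-only peak had a median of 41.3 kb, and 416 (4.30%, 3.91 to 4.73%) had another within 1 kb. A shared transient peak lay within 1 kb of 113 (1.17%). Within 500 bp, 291 (3.01%) had another transient-only peak and 37 (0.383%) had a shared transient peak. Within 10 kb, 1941 (20.1%) had another transient-only peak and 1251 (12.9%) had a shared transient peak. The 2 sets are of unequal size, 9664 transient-only and 6455 shared peaks, and the reason for the difference at short range was not tested. The closest transient-only neighbours were 4 bp apart, on chromosome 11 at 117827640 to 117828144 and 117828149 to 117828879 (scores 72.18 and 173.07). The next closest pairs were 6 bp apart on chromosome 17, from 75920395 to 75920971, and 8 bp apart on chromosome 5, from 65193745 to 65195009. The widest member, 2430 bp, lay on chromosome 11 between 117829606 and 117832035, near the first of these pairs. The narrowest, 103 bp, was on chromosome 2 between 152620835 and 152620937.

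Transient-only peaks within 10 kb of each other were joined, with shared transient peaks left out. Of these 7723 stayed single, 726 clusters held 2, 111 held 3, 32 held 4, 2 held 5 and 2 held 9. The last 2 stood out for their density. One ran from 19638782 to 19647765 on chromosome 15, with 9 peaks over 8.98 kb scoring from 60.54 to 292.36. Beside it lay 2 shared transient peaks (97.16 and 128.81) and 1 peak of stable 20 ug replicate 1, which scored 50.25. The other ran from 43741266 to 43748846 on chromosome 3, with 9 peaks over 7.58 kb scoring from 56.66 to 266.70. Its nearest stable peak was 2.39 Mb away, and none of the other 11 mouse lists had a peak within 10 kb of it. For the short lists this absence says little. The transient input held 3 peaks and the Nanog-sg2 lists 26, 26 and 20. The stable Nanog-sg3 lists with the least guide held 166 and 122. The input list is thus too short to serve as a check on this cluster. The 18 peaks of both clusters were 198 to 765 bp wide. The clusters were singled out after their values were seen.

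**Figure D5:**
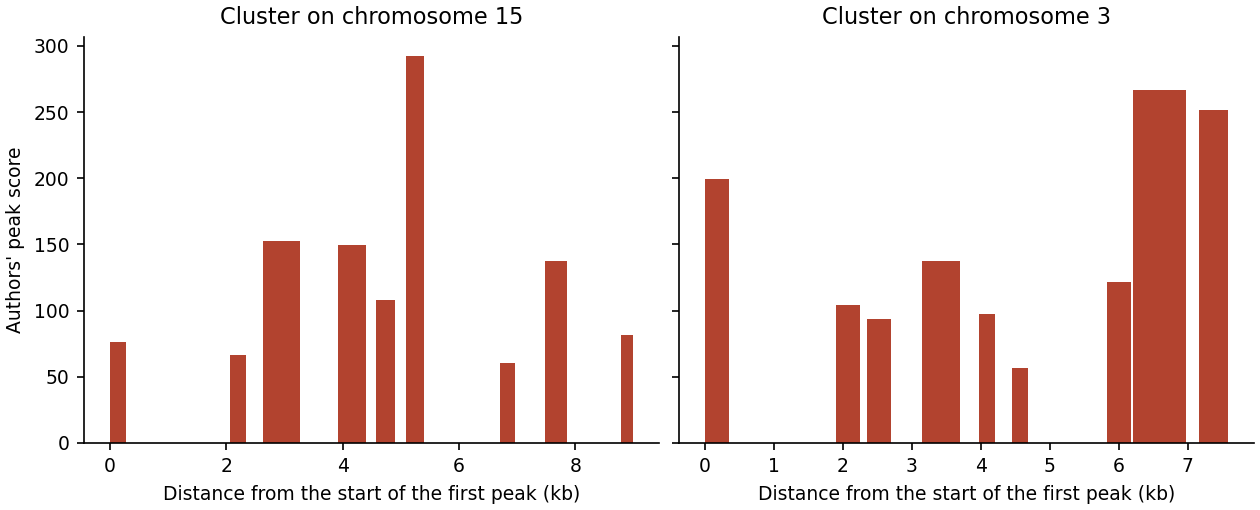
Authors' peak score (y) of the 9 transient-only peaks in each of the 2 largest clusters, by distance in kb from the start of the first peak (x); the width of a bar is the width of the peak. The highest bars reach 292.36 on chromosome 15 (left) and 266.70 on chromosome 3 (right).

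Other guides, which the rule did not use, had almost no peaks at the transient-only places. Of the 9664 transient-only peaks 11 (0.114%, 0.057 to 0.204%) overlapped a Phc1-sg1 peak, and of the 6455 shared transient peaks 4 did (0.062%, 0.017 to 0.159%). For Phc1-sg2 the counts were 3 transient-only and 1 shared. Within 1 kb of a Phc1-sg1 peak lay 0.631% of transient-only and 0.666% of shared peaks (intervals 0.483 to 0.810% and 0.483 to 0.896%). The 3 Nanog-sg2 lists hold 26, 26 and 20 peaks and the transient input 3, too few to compare. None of these overlapped a transient-only or a shared transient peak.

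The strongest of the 14 members under a Phc1 peak lay on chromosome 15 between 77679403 and 77680244, with a score of 258.14 (rank 796). It sat wholly inside a Phc1-sg1 peak that ran from 77676896 to 77680615 and scored 89.65, and a stable Nanog-sg3 peak was 1.004 kb away. The members under Phc1-sg2 peaks were chr13:38085328-38086301 (238.43), chr10:18887929-18888290 (172.46) and chr11:94425521-94426453 (88.47). The other 10 under Phc1-sg1 peaks scored from 51.00 to 98.58, with overlaps of 23 to 879 bp. The Phc1 guides differ from Nanog-sg3 in the place they were made for, and their libraries came from the stable line.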

How the data were processed

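Peak lists of 12 mouse samples were used, 1 list for each; the 4 human lists and the samples without a list here were not analysed. Bowtie and the mouse build mm9 are named in the submitters' processing notes. Peak names start with MACS, the name of a peak caller, but no label gives a version, control or threshold, and read depth is unknown. Of the mouse lists 8 are named as filtered, the transient one included, and 4 are not, stable 20 ug replicate 1 among them; the filter is not described. The score of each peak is deposited by the authors and was used to rank and group peaks within the transient list. Scores of different lists may not share a scale, so list medians set side by side, and the alternative with 1 minimum for all lists, describe the lists only. File starts were read as 0-based, and printed positions are 1-based.

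Gaps and overlaps were computed with Python 3.11.15, pandas 2.3.3, NumPy 2.4.6 and SciPy 1.17.1. The search for overlaps and gaps was tested on 2000 simulated peaks and gave the planted overlap, gap and neighbour for all 2000. Shares carry exact Clopper-Pearson 95% intervals. No test between groups was made, with 1 transient library. Positions named are the strongest, farthest, closest, widest and narrowest members, those nearest Nanog and those under peaks of other guides. Members and lists were chosen with earlier results of these data known. No genome or annotation of mm9 was used here, so the planned counts of seed motifs and genes were not made.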

Additional observations from a re-analysis of the deposited data

How the results depend on the processing

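The number of transient-only peaks, 9664, stayed within 1.5 times under the alternatives other than those that use part of the list. It was 2723 with a score of at least 100 in the transient list, 3670 with that score in all lists and 3096 where the numbering was continuous. Without either 20 ug replicate it was 10855 to 10872. The share, 60.0%, was 39.0%, 52.6% and 62.3% under the first 3 of these, 67.3 to 67.4% without either replicate and 62.2% with the 20 ug lists only. It was 75.9% when an overlap had to reach 50% of both peaks, 64.9% with centres within 200 bp and 58.6% where a stable peak within 1000 bp counted. A transient peak less than 50% as wide as the stable peak cannot meet the first of these rules. In the order score in the transient list, score in all lists, 50% of both peaks and centres, the median score was 124.73, 127.60, 82.87 and 79.45, the median width 390, 388, 331 and 337 bp, and the median gap 43.0, 79.2, 27.6 and 38.8 kb. Without either replicate these were 80.00 to 80.24, 327 to 337 bp and 58.8 to 61.8 kb. With the 20 ug lists only the width was 332 bp and the gap 51.8 kb, and with continuous numbering 345 bp and 39.5 kb. The gap was 48.0 kb where 1000 bp counted. The share within 1 kb of a stable peak, 2.25%, was 22.7% with 50% of both peaks and 9.68% with centres. Under both of these rules, peaks that overlap a stable peak but miss the stricter limit become members with a gap of 0. That raises the share and lowers the median gap by construction. The share was also lower by construction where a near stable peak counted, at 1.03% for 500 bp and 0% for 1000 bp. It was 2.68% and 1.77% with the 2 score minimums, 1.88% with the 20 ug lists only, 1.89% with transient peaks within 500 bp merged and 1.89 to 2.13% without either replicate. Leaving out chromosome 14, with 9532 peaks and a share of 60.3%, or counting touching ends as overlap changed no value beyond its interval. Continuous numbering, chromosome 14 and touching ends were chosen after seeing the data. No paired analysis was possible because the transient arm held 1 library. Depth is unknown, so weak peaks missing from a stable list cannot be told from places without binding.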
